A study of Homo sapiens with 4 samples.

Results

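snoRNAs and scaRNAs are short noncoding RNAs that steer chemical changes onto other RNAs. The group described here held genes whose symbol begins with SNORA, SNORD or SCARNA. It took every such gene whose read counts summed to at least 20 over the 4 libraries. Within the group, members were thus chosen by symbol and by total read count, the measured value used. The group itself was chosen with earlier results of these data known. Shares set against all genes tested are therefore not those of a group fixed in advance. Of 60719 genes counted, 553 carried such a symbol. Of these, 364 had no count in any library, 66 had 1 to 19 counts in all and 123 met the minimum. The 123 members were 53 box C/D snoRNAs, 58 box H/ACA snoRNAs and 12 scaRNAs. SNORA11B and SNORD71, with 28 counts each over the 4 libraries, lay just inside the minimum, and SNORD114-25 and SNORA80C, with 19 each, just outside.

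The libraries held RNA that co-purified with the motor protein KIF5A from SK-N-AS cells (SKNAS in the labels), an established human neuroblastoma line. Cells were transfected with a V5-tagged d27 KIF5A construct or a V5-tagged WT KIF5A construct, and the experiment began 24 h later. V5 is a peptide tag that the anti-V5 magnetic beads bind, and each construct had 2 precipitates. The series title ties the mutations to amyotrophic lateral sclerosis and to loss of KIF5A autoinhibition. All libraries came from cells transfected with a construct in addition to their own KIF5A. No input or mock precipitate is used here, so the values set d27 against WT and cannot say what KIF5A enriched.

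Box C/D snoRNAs pair with a target RNA and place a ribose methyl group through fibrillarin, and box H/ACA snoRNAs place pseudouridine through dyskerin. Their main targets are ribosomal RNAs in the nucleolus, while scaRNAs reside in Cajal bodies and guide the same changes on the small nuclear RNAs of the spliceosome. A few members, such as the U3 and U17 RNAs, act in cleavage of the ribosomal RNA precursor. Most human members are cut out of introns of host genes, so that host mRNA and small RNA share a primary transcript.

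The sequences of 9 members are shown because the values below turn on them. These are the most abundant member, the 3 box C/D snoRNAs with low p-values and a strong box H/ACA case. The sole member called higher in d27 precipitates and 3 scaRNAs follow, of which SCARNA5 and SCARNA6 share a host gene. All 9 are the annotated transcripts of GENCODE release 29 (GRCh38), written as DNA on the strand of the RNA. Capitals mark the TGATGA and CTGA letters of the C and D boxes, or the ACA near the 3′ end. The regions are chr1:28508559-28508762 (plus strand) for SNORA73B, chr20:17962710-17962946 (minus) for SNORD17, chr12:132031224-132031359 (plus) for SNORA49, chr12:56645027-56645101 (minus) for SNORD59A and chr2:101272936-101273049 (minus) for SNORD89. Those of the others are chr9:131490486-131490571 (plus) for SNORD62B, chr2:233275727-233276002 (plus) for SCARNA5, chr2:233288676-233288940 (plus) for SCARNA6 and chr17:7906122-7906260 (plus) for SCARNA21.
SNORA73B: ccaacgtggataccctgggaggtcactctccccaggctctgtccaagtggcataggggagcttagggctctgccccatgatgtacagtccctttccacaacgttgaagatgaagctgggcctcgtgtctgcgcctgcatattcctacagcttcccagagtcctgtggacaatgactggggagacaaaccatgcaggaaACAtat
SNORD17: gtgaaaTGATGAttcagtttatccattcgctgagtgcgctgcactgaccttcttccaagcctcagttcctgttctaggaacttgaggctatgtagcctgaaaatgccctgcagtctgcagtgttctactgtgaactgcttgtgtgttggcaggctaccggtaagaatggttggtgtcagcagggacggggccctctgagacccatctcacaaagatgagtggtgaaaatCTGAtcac
SNORA49: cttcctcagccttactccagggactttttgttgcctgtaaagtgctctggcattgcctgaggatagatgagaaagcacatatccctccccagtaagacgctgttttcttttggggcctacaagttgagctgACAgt
SNORD59A: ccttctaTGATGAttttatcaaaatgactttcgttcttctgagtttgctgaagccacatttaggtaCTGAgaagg
SNORD89: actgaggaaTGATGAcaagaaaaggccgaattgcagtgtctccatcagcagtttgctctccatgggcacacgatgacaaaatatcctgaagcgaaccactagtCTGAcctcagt
SNORD62B: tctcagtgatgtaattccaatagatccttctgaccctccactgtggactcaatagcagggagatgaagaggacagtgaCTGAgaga
SCARNA5: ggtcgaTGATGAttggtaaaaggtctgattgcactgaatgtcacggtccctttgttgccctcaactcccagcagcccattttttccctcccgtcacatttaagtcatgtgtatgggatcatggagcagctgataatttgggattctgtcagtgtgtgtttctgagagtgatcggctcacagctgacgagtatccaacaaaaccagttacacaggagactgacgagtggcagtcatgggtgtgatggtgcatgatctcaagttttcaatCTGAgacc
SCARNA6: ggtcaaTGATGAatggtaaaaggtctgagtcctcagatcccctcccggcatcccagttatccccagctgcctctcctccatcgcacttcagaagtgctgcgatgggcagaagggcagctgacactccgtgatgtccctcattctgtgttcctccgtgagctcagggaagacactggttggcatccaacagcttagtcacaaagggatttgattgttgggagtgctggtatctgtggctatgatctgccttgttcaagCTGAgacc
SCARNA21: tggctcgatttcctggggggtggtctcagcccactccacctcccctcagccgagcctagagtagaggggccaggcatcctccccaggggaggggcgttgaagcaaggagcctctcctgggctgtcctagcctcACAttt

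The classes that the symbols give could be read in the letters of the RNAs. TGATGA followed later by CTGA was searched on the RNA's own strand, in genes with a single transcript in the release. It was present in 42 of 49 box C/D members, in 1 of 56 box H/ACA members and in 3 of 12 scaRNAs. Of all 984 such snoRNA and scaRNA transcripts of the release, 304 held it (30.9%). An ACA with 2 to 5 bases between it and the 3′ end closed 49 of 56 box H/ACA members. It closed 6 of 49 box C/D members and 9 of 12 scaRNAs, against 355 of the 984 transcripts (36.1%). SNORD62B, printed above, holds CTGA but no TGATGA.

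Counts over all genes were 18335151 and 10483082 in d27 replicates 1 and 2 and 8142869 and 10811134 in WT replicates 1 and 2. Reads that could not be placed at a single site were 9.10% and 17.1% of all entries in the d27 tables, against 23.7% and 22.8% in the WT tables, and reads outside any gene were 13.5% and 16.7% in d27, against 20.6% and 21.8% in WT. Both shares were lower in d27 libraries and lowest in d27 replicate 1, and so was the snoRNA share below; their part in the results was not tested. Neuroblastoma markers were present, with HAND2 at 557 and 424 CPM in d27 and 697 and 681 CPM in WT (CPM, counts scaled to a common library size with TMM factors), while EPCAM and the globins HBB and HBA1 were listed at 0. None of the 9 mesenchymal markers was called (1 was lower and 4 higher at an unadjusted p under 0.05, and 1 and 3 with DESeq2), and of 3 blood and 3 epithelial markers PTPRC and KRT18 fell (3 of these 6 were at 0 in every library). PTPRC, a leukocyte gene, had 100 and 79.5 CPM in d27 and 189 and 162 CPM in WT, and its part in the results was not tested. KIF5A itself, fed by the cells' own gene and by either construct, had 107913 and 108931 CPM in d27 and 83401 and 165628 CPM in WT and was not called.

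snoRNAs and scaRNAs took a smaller share of the counts in d27 precipitates than in WT precipitates. Member counts were 17870 and 23850 in d27, or 0.0975% and 0.228% of all gene counts (95% exact binomial intervals 0.0960 to 0.0989% and 0.225 to 0.230%). In WT they were 35552 and 30694, or 0.437% and 0.284% (intervals 0.432 to 0.441% and 0.281 to 0.287%, all for counting error only). Both d27 libraries lay below both WT libraries, d27 replicate 1 by far the most, and the mean share in d27 was 0.451 times that in WT. The ratio was 0.632 without d27 replicate 1, 0.271 without d27 replicate 2, 0.572 without WT replicate 1 and 0.372 without WT replicate 2. In a bulk precipitate without an input, less of an RNA per cell, fewer cells that contribute it and less co-purification cannot be told apart.

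SNORA73B alone, the U17 RNA of ribosomal RNA precursor cleavage, held 49.3% and 41.8% of member counts in d27 and 35.6% and 36.8% in WT. It therefore weighed more among the members in d27 libraries although its CPM was lower in both of them than in either WT library. Without it, the members' share of gene counts was 0.0494% and 0.132% in d27, against 0.281% and 0.179% in WT, a ratio of 0.395. Box H/ACA snoRNAs made 0.0786% and 0.179% of gene counts in d27 and 0.319% and 0.210% in WT. Box C/D snoRNAs made 0.0119% and 0.0369% in d27 and 0.0832% and 0.0493% in WT, and scaRNAs 0.00692% and 0.0118% in d27 and 0.0344% and 0.0243% in WT. All 3 classes had the same order of libraries, with d27 replicate 1 lowest, d27 replicate 2 next and WT replicate 1 highest.

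**Figure D1:**
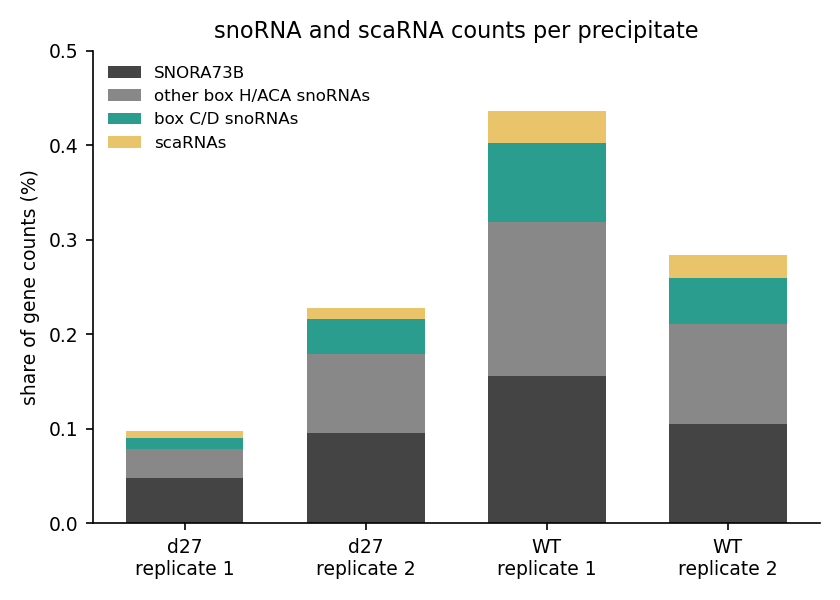
Share of all gene counts (percent, vertical axis) taken by snoRNAs and scaRNAs in each of the 4 precipitates, stacked as SNORA73B, the other box H/ACA snoRNAs, box C/D snoRNAs and scaRNAs. The d27 bars reach 0.0975% and 0.228%, and the WT bars 0.437% and 0.284%.

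Gene by gene, 117 of the 123 members passed the filter on low counts and were tested with edgeR's quasi-likelihood test among 14909 genes. Of these, 20 members fell in d27 precipitates at an adjusted p (Benjamini-Hochberg over all genes tested) under 0.05, 1 rose and 96 were not called. Over all genes tested, 3.70% were called lower and 8.00% higher (11.7% in either direction), against 17.1% of tested members called lower. The log2 fold change was below 0 for 104 of the 117, against 7456 of the 14909 genes tested. The median over tested members was -1.18, with a range of -3.79 to 2.50, and the median over all genes tested was -0.00043. Among all 123 members, both d27 values lay below both WT values in 70, above them in 2 (SNORD62B and SNORD113-3, of which SNORD113-3 is named after its values were seen) and overlapped in 51, while 29.8% of all genes tested had d27 below WT and 31.4% above. The 6 untested members were SCARNA14, SNORD113-9, SNORD3A, SNORD71 and a pair of unnumbered SNORA73 copies on chromosomes 6 and 18.

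The number of members called lower depended on single libraries. Without d27 replicate 1 it was 8 of 123 tested, where 0.431% of all genes tested were called lower, and without d27 replicate 2 it was 49 of 121, against 3.85% of all genes. Without WT replicate 1 it was 21 of 118, against 13.1% of all genes, so the members' share was then close to the background. Without WT replicate 2 it was 27 of 123, against 1.92% of all genes. The median log2 fold change of tested members was -0.53 without d27 replicate 1 and -2.10 without d27 replicate 2. The members that were called under all 10 alternatives tried were SNORD17, SNORD59A, SNORD89, SNORA49, SNORA12, SNORA47, SCARNA6 and SCARNA21. SNORD62B, the member that rose, was lost without WT replicate 2, without either d27 library and with library totals in place of TMM scaling.

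**Figure D2:**
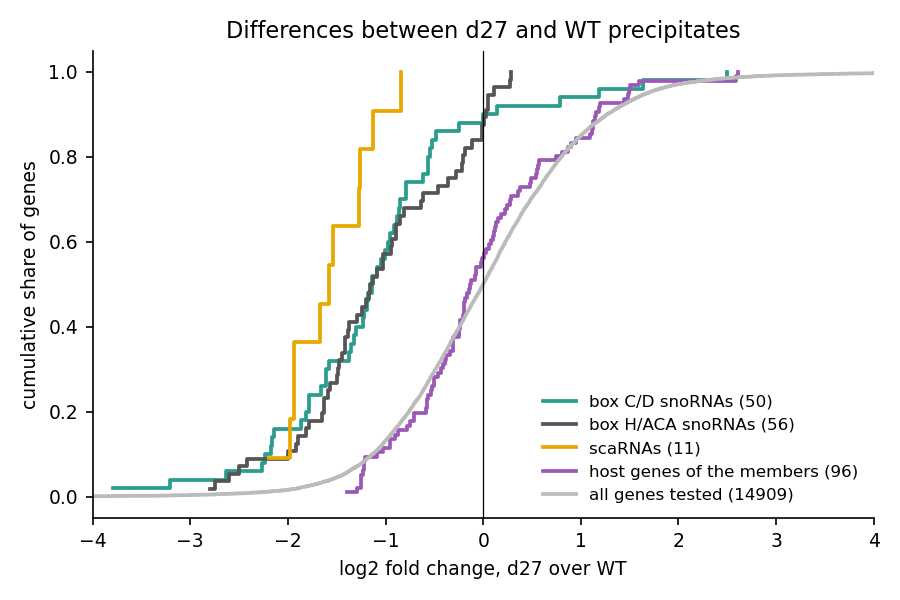
Cumulative share of genes (vertical axis) against the log2 fold change of d27 over WT (horizontal axis) for tested box C/D snoRNAs, box H/ACA snoRNAs, scaRNAs, their host genes and all 14909 genes tested. The members' curves lie left of the others, with class medians of -1.14, -1.14 and -1.58, whereas the median of the host genes was -0.13.

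Box H/ACA snoRNAs, the pseudouridine guides, gave the most counts. Of 56 tested, 11 fell (19.6%), 45 were not called and none rose (0 higher also at an unadjusted p under 0.05 and with DESeq2). Over all genes tested, 3.70% were called lower and 8.00% higher. SNORA23, a guide for the large ribosomal subunit RNA, had 59.7 and 114 CPM in d27 precipitates, against 276 and 260 CPM in WT. It fell by 1.63 ± 0.33 on the log2 scale (SE, n = 2 each, edgeR adjusted p = 0.0247), and the call was lost without d27 replicate 1. SNORA49 had 37.2 and 55.3 CPM in d27 and 142 and 137 CPM in WT, with a log2 fold change of -1.59 ± 0.27 (edgeR adjusted p = 0.0155). For both genes the highest d27 value was less than the lowest WT value by more than the spread within either group.

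Less abundant box H/ACA members fell as well. SNORA12 had 8.35 and 7.41 CPM in d27, against 30.3 and 25.5 CPM in WT, and fell by 1.82 ± 0.30 (edgeR adjusted p = 0.0147). SNORA47 had 2.22 and 2.04 CPM in d27, against 8.51 and 21.2 CPM in WT, and fell by 2.79 ± 0.53 (edgeR adjusted p = 0.0208). The d27 libraries of these genes were close to each other, so neither rested on the low d27 replicate 1. SNORA20, a guide for the small ribosomal subunit RNA, had 5.05 and 13.7 CPM in d27 and 46.4 and 27.9 CPM in WT, with a log2 fold change of -2.00 ± 0.50 (edgeR adjusted p = 0.0411). SNORA22, a guide for the large subunit RNA, had 16.7 and 32.8 CPM in d27 and 72.9 and 58.6 CPM in WT, with -1.42 ± 0.36 (edgeR adjusted p = 0.0430). Both calls were lost without d27 replicate 1 and with library totals in place of TMM scaling, and that of SNORA20 also without either WT library.

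SNORA36C, SNORA11F and SNORA40B, low in every library, had log2 fold changes of -2.50, -2.42 and -1.92, all called lower (edgeR adjusted p = 0.0286, 0.0299 and 0.0279). SNORA11F is 86.7% identical to its relative SNORA11, so how reads were split between the pair is uncertain. SNORA37 and SNORA11, named after their values were seen to complete the 11, fell by 1.90 and 2.74 (edgeR adjusted p = 0.0415 and 0.0497). All 5 calls were lost without d27 replicate 1, that of SNORA40B also without d27 replicate 2, and those of SNORA37 and SNORA11 also with library totals. The call of SNORA11 was further lost without either WT library.

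Several of the most abundant box H/ACA members were not called. SNORA73B had 478 and 924 CPM in d27 precipitates and 1438 and 1171 CPM in WT, with a log2 fold change of -0.90 ± 0.36 (SE, n = 2 each, edgeR adjusted p = 0.140), and passed with DESeq2 (adjusted p = 0.0268). Its copy SNORA73A, 93.2% identical over its length, was listed at 0 in every library, so the pair's reads may not be told apart. SNORA14B, a small-subunit guide, had 21.4 and 80.1 CPM in d27 and 147 and 68.4 CPM in WT (edgeR adjusted p = 0.268), with overlapping groups. SNORA66 had 5.48 and 46.8 CPM in d27 and 35.1 and 17.1 CPM in WT. Its log2 fold change was -0.01 (edgeR adjusted p = 0.997), and its sign turned under 4 of the 10 alternatives. In these genes d27 replicate 1 was the lowest library and d27 replicate 2 reached or neared the WT values.

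SNORA74A, the U19 RNA, had 25.3 and 52.2 CPM in d27 and 87.8 and 60.7 CPM in WT (edgeR adjusted p = 0.137). SNORA65 had 11.1 and 61.8 CPM in d27 and 88.1 and 46.5 CPM in WT (edgeR adjusted p = 0.442), with overlapping groups. SNORA3B came closest to a call, with 9.93 and 30.0 CPM in d27, 56.8 and 80.1 CPM in WT and a log2 fold change of -1.79 ± 0.49 (edgeR adjusted p = 0.0529). SNORA74D, SNORA80E and SNORA71B, the remaining box H/ACA members among the 20 most abundant, had log2 fold changes of -0.85, -1.50 and -1.24 (edgeR adjusted p = 0.333, 0.113 and 0.214). Per 100 nt of transcript, SNORA73B averaged 491 CPM, SNORA23 97.4, SNORD99 86.2, SNORA49 68.1, SNORA14B 58.6 and SNORD17 47.9 over the 4 libraries. The insert size aimed at in library construction lay above the length of most members. Whether this scale makes levels of different genes comparable was not tested.

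**Figure D3:**
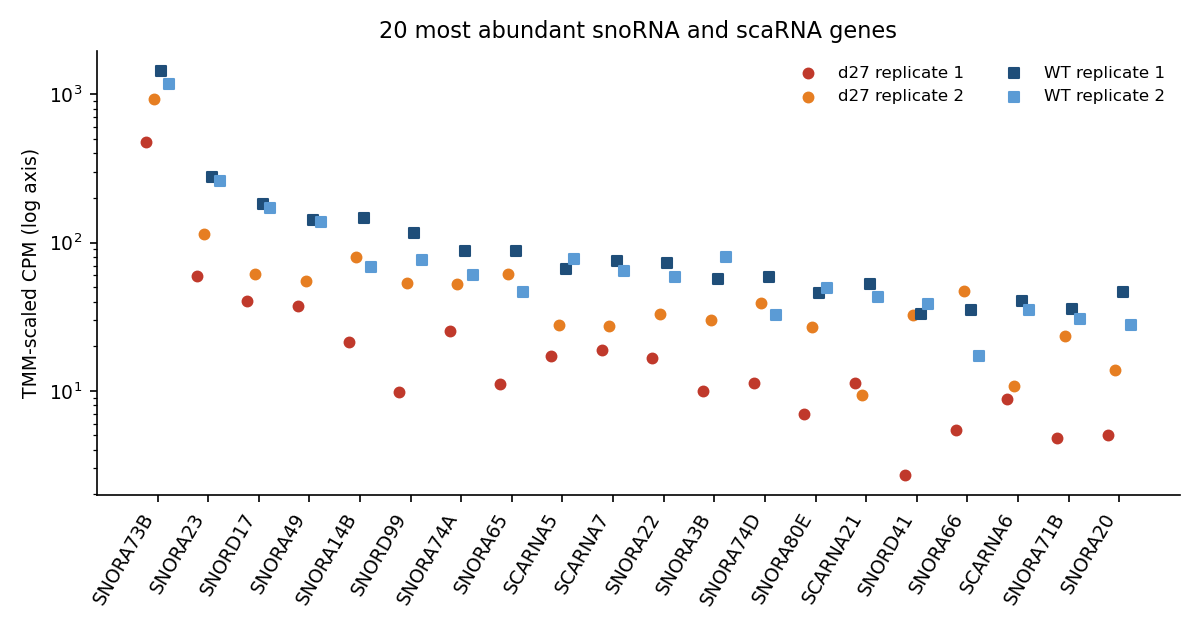
TMM-scaled CPM on a log axis in each library (circles for d27, squares for WT) for the 20 members with the highest mean level. SNORA73B stands above the rest at 478 to 1438 CPM, and d27 replicate 1 is the lowest library in every gene shown except SCARNA21.

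Among box C/D snoRNAs, the ribose methylation guides, 50 were tested, 4 fell (8.0%), 1 rose and 45 were not called. Over all genes tested, 3.70% were called lower and 8.00% higher. SNORD17 had 40.6 and 61.6 CPM in d27 precipitates, against 182 and 171 CPM in WT, and fell by 1.79 ± 0.28 on the log2 scale (SE, n = 2 each, edgeR adjusted p = 0.0124). SNORD59A had 1.90 and 3.24 CPM in d27, against 22.6 and 24.2 CPM in WT, and fell by 3.21 ± 0.40 (edgeR adjusted p = 0.00738). Its mean CPM was 9.10 times higher in WT, and it had the lowest p of all members. SNORD89 had 2.60 and 5.65 CPM in d27, against 25.2 and 25.2 CPM in WT, and fell by 2.63 ± 0.43 (edgeR adjusted p = 0.0142). These 3 genes had WT libraries nearly level with each other and d27 libraries far below them. SNORD91B, a large-subunit guide, had 3.20 and 6.21 CPM in d27 and 25.8 and 16.4 CPM in WT, with a log2 fold change of -2.18 ± 0.44 (edgeR adjusted p = 0.0246), lost without d27 replicate 1.

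The box C/D members SNORD99 and SNORD41, both guides for the large-subunit RNA, had a wide spread between the d27 libraries and were not called. SNORD99 had 9.87 and 53.6 CPM in d27 and 115 and 76.6 CPM in WT, with a log2 fold change of -1.61 (edgeR adjusted p = 0.171). SNORD41 had 2.71 and 32.3 CPM in d27 and 32.9 and 38.5 CPM in WT, with -1.05 (edgeR adjusted p = 0.476). In d27 replicate 2 SNORD41 nearly reached the WT values, while in d27 replicate 1 it lay far below them.

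SNORD62B was the member that rose. It had 5.21 and 6.67 CPM in d27 precipitates, against 1.36 and 0.725 CPM in WT, from 96 and 72 counts in d27 and 12 and 7 counts in WT. Its log2 fold change was 2.50 ± 0.63 (SE, n = 2 each, edgeR adjusted p = 0.0425), and its mean CPM in d27 was 5.69 times that in WT. SNORD62B is identical over its 86 nt to SNORD62A, which had 16 counts in all, so reads of the pair cannot be assigned with certainty. Its host gene PRRC2B had a log2 fold change of -0.59 and was not called.

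The scaRNAs had log2 fold changes below 0 throughout. Of 12 members, 11 were tested, 5 fell (45.5%), 6 were not called and none rose (0 higher also at an unadjusted p under 0.05 and with DESeq2). Over all genes tested, 3.70% were called lower and 8.00% higher. The median log2 fold change of the tested scaRNAs was -1.58. SCARNA7, which guides modification of U1 snRNA, had 19.0 and 27.5 CPM in d27 precipitates, against 75.0 and 63.8 CPM in WT, and fell by 1.58 ± 0.29 on the log2 scale (SE, n = 2 each, edgeR adjusted p = 0.0187). SCARNA21 had 11.3 and 9.36 CPM in d27, against 52.4 and 42.7 CPM in WT, and fell by 2.19 ± 0.29 (edgeR adjusted p = 0.00898). In SCARNA21 the d27 libraries were nearly level, and d27 replicate 1 was the higher. SCARNA8 had 2.77 and 7.97 CPM in d27 and 20.4 and 20.2 CPM in WT, with -1.94 ± 0.50 (edgeR adjusted p = 0.0447).

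SCARNA5 and SCARNA6, which guide modification of U5 snRNA, both lie in introns of ATG16L1, an autophagy gene, and their transcripts are 62.7% identical. SCARNA5 had 17.3 and 27.9 CPM in d27, against 66.0 and 77.3 CPM in WT, and fell by 1.67 ± 0.31 (edgeR adjusted p = 0.0192). SCARNA6 had 8.84 and 10.8 CPM in d27, against 40.2 and 35.0 CPM in WT, and fell by 1.94 ± 0.29 (edgeR adjusted p = 0.0118). ATG16L1 itself had a log2 fold change of 0.35 and was not called. SCARNA5, SCARNA7 and SCARNA8 lost their calls without d27 replicate 1, and SCARNA8 also without WT replicate 2 and with library totals in place of TMM scaling.

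Of the other tested scaRNAs, SCARNA23 had 1.14 and 1.11 CPM in d27 and 3.74 and 5.18 CPM in WT, with a log2 fold change of -1.98 (edgeR adjusted p = 0.0855). SCARNA11, SCARNA18, SCARNA1, SCARNA3 and SCARNA20 had log2 fold changes of -1.54, -1.27, -1.26, -1.12 and -0.84 (edgeR adjusted p = 0.228, 0.272, 0.285, 0.282 and 0.498). The sign of SCARNA1 turned without WT replicate 1. SCARNA14, untested, had 0.922 and 0.649 CPM in d27 and 1.82 and 0.622 CPM in WT, with overlapping groups.

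The members that act in cleavage of the ribosomal RNA precursor, or, for SNORD13, in modifying the small-subunit RNA, were 7, and none of the 6 tested was called (2 had an unadjusted p under 0.05 and 2 passed with DESeq2). Their median log2 fold change was -0.95. Beside SNORA73B, SNORD13 had 3.04 and 12.7 CPM in d27 precipitates and 26.9 and 22.1 CPM in WT, with a log2 fold change of -1.66 ± 0.59 (edgeR adjusted p = 0.104). SNORD14A and SNORD14E, copies of U14, had -1.09 and 0.15 (edgeR adjusted p = 0.401 and 0.929), and the sign of SNORD14E turned without WT replicate 2 and without d27 replicate 2. The U3 genes were near the floor: SNORD3B-2 and SNORD3C had -1.01 and -0.49 (edgeR adjusted p = 0.487 and 0.838), the sign of SNORD3C turned without WT replicate 1 and without d27 replicate 1, and SNORD3A had 6 and 6 counts in d27 and 13 and 6 counts in WT. U3 has near-identical copies, so these counts are uncertain.

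The 8 members of the imprinted SNORD113 and SNORD114 arrays on chromosome 14, which guide no known rRNA site, were low in every library. None of the 7 tested was called (0 also at an unadjusted p under 0.05 and with DESeq2), and their median log2 fold change was -1.13. Summed over the 8, CPM were 2.98 and 9.18 in d27 replicates 1 and 2 and 17.5 and 5.28 in WT replicates 1 and 2. Here d27 replicate 2 lay above WT replicate 2. The groups overlapped in 6 of the 8, with d27 below WT in 1 and above in 1. The SEs of these 7 log2 fold changes ranged from 0.94 to 1.61. A count of 0 allows up to 3 counts, or 0.164 and 0.286 CPM in d27 and 0.368 and 0.277 CPM in WT before TMM scaling.

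The host genes of the members had a median log2 fold change close to that of all genes. Of the 123 members, 117 lay inside a host gene in the annotation. They had 98 distinct hosts, of which 96 were tested: 6 fell (6.25%), 8 rose and 82 were not called, with a median log2 fold change of -0.13. Over all genes tested, 3.70% were called lower and 8.00% higher. In 108 members with a tested host, the member's log2 fold change was below that of its host in 91, and the median difference, member minus host, was -1.03. This difference was not tested, and host counts come mostly from the spliced transcript while the member's come from its own short locus.

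Among the 20 members that fell, SNORA49 lies in EP400, a chromatin remodeller gene that itself fell, by 1.23 on the log2 scale (edgeR adjusted p = 0.0427). No other host of these members was called. SNORA22, SNORA47 and SCARNA7 lie in CCT6P1, ZBED3 and KPNA4, which had log2 fold changes of 1.48, 1.51 and 1.15. SNORD59A lies in ATP5F1B, a subunit gene of the mitochondrial ATP synthase, and SNORD89 in RNF149, which had -0.01 and 0.10. SCARNA21 lies in CHD3, which had -1.25, and SNORA23 in the nuclear import gene IPO7, which had -0.47.

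**Figure D4:**
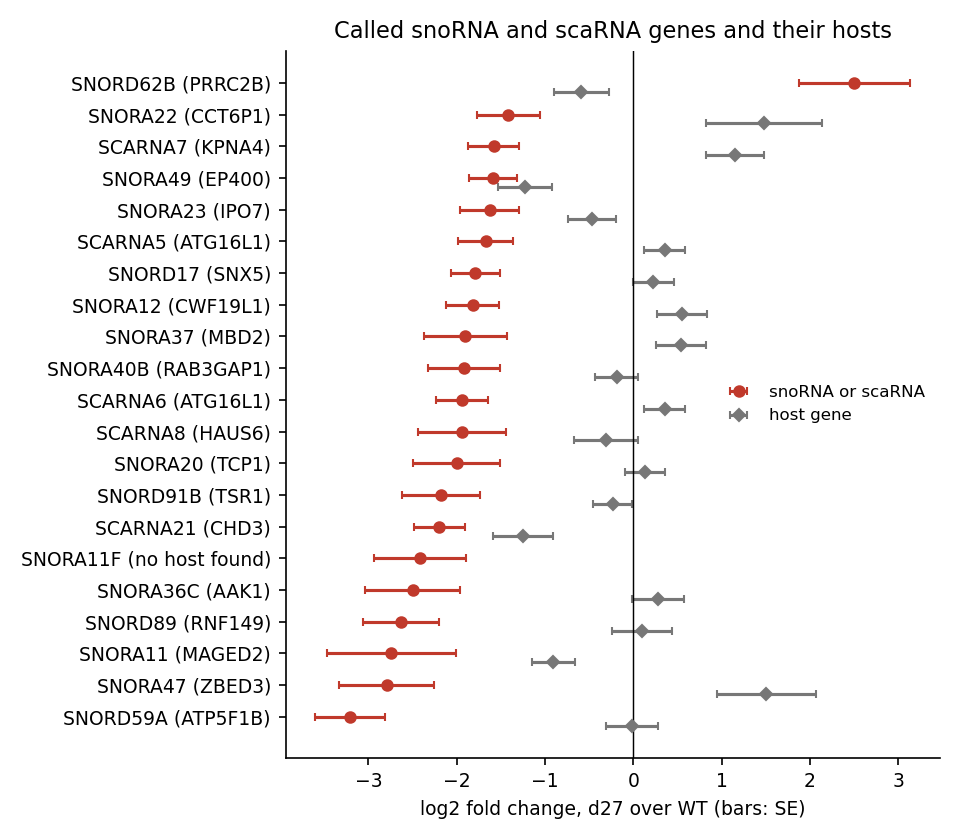
Log2 fold change of d27 over WT (horizontal axis, bars are SE) for the 21 called members (red circles) and their host genes (grey diamonds), with the host in brackets. The 20 members that fell lie between -3.21 and -1.42, while their hosts lie between -1.25 and 1.51.

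By host kind, the 78 tested members in protein-coding genes other than ribosomal protein genes included 18 that fell (23.1%) and 1 that rose. Their median log2 fold change was -1.22. Over all genes tested, 3.70% were called lower and 8.00% higher. Of the 21 tested members in noncoding or pseudogene hosts, such as SNHG genes, 1 fell, with a median of -1.14. This 4.76% was near the share of all genes called lower. None of the 13 members in ribosomal protein genes was called (3 had an unadjusted p under 0.05, all lower, and 2 passed with DESeq2). Of their 13 log2 fold changes, 12 were below 0, with a median of -0.92. Against the WT mean (log2 of CPM plus 0.5), their medians were -2.39 and -0.46 in d27 replicates 1 and 2. In WT replicates 1 and 2 they were 0.42 and -0.59, so the library medians of the groups overlapped. The 5 tested members with no host in the annotation included 1 that fell, SNORA11F, and had a median of -1.66. Whether these classes differ was not tested.

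The gap between the d27 libraries varied with transcript length. The insert size aimed at in library construction was 150 to 200 bp per the labels' protocols, above the length of most members: box C/D members had a median of 80 nt, box H/ACA members 134.5 nt and scaRNAs 137.5 nt. Against the WT mean (log2 of CPM plus 0.5), the 40 members under 100 nt had medians of -1.72 and -0.28 in d27 replicates 1 and 2, against 0.30 and -0.38 in WT replicates 1 and 2. The 64 members of 100 to under 150 nt had medians of -1.86 and -0.55 in d27 and 0.30 and -0.38 in WT. The 13 members of 150 nt or more had medians of -1.84 and -1.15 in d27 and 0.11 and -0.12 in WT. In d27 replicate 1 the deficit was of similar size in all 3 length bands. In d27 replicate 2 it was largest in the longest members, and among those under 100 nt the median of d27 replicate 2 lay within the WT values.

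The share called lower was larger in each longer band, while 3.70% of all genes tested were called lower and 8.00% higher. Of the 38 tested members under 100 nt, 1 fell (SNORD59A) and 1 rose (SNORD62B), with a median log2 fold change of -1.07. The 2.63% called lower in this band was near the share of all genes. Of the 63 tested members of 100 to under 150 nt, 13 fell (20.6%), with a median of -1.17. Of the 11 tested members of 150 nt or more, 5 (45.5%) fell (SNORA23, SNORD17, SCARNA5, SCARNA6 and SCARNA7), with a median of -1.57. SNORD91B, whose locus spans 222 nt, has several transcripts in the release and was left out of this tally with 5 other members. Length, class and abundance go together among the members, and their parts in the result were not tested.

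**Figure D5:**
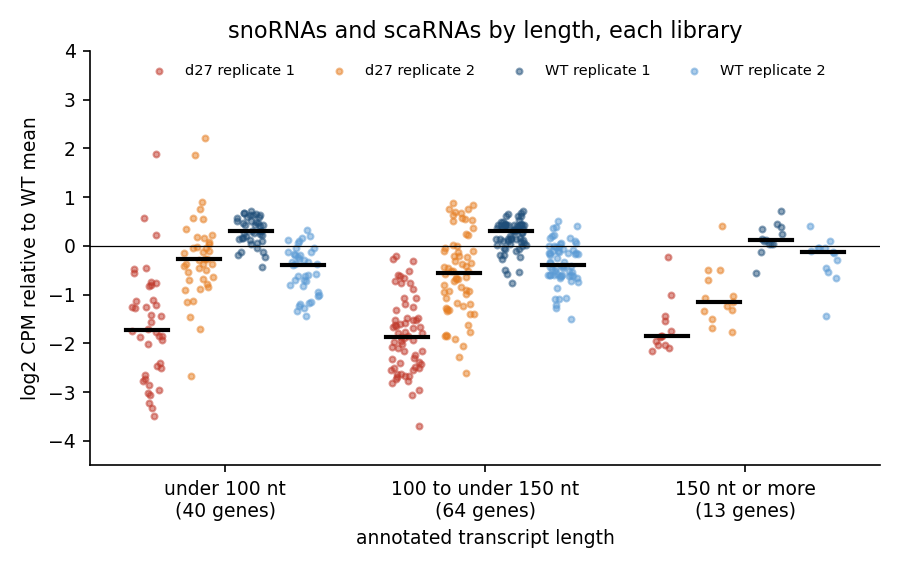
Log2 level of each member relative to its WT mean (vertical axis, CPM plus 0.5) in d27 replicates 1 and 2 and WT replicates 1 and 2, by annotated transcript length; each point is a gene and each bar a median. The d27 replicate 1 medians lie between -1.86 and -1.72 in all 3 bands, and the d27 replicate 2 medians between -1.15 and -0.28.

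The proteins that bind these RNAs or assemble them into particles are translated from their own mRNAs, which were counted in the same precipitates. Of 26 such genes, all tested, 2 fell, none rose (3 had an unadjusted p under 0.05 in that direction and 2 passed with DESeq2) and 24 were not called, with a median log2 fold change of -0.01. Called lower were thus 7.69% of these genes, against 3.70% of all genes tested (8.00% were called higher). The 2 were RUVBL1 and RUVBL2, ATPases that take part in assembly of the particles and also in chromatin complexes. RUVBL2 had 124 and 151 CPM in d27, against 293 and 356 CPM in WT, and fell by 1.23 ± 0.25 (edgeR adjusted p = 0.0246). RUVBL1 had 69.3 and 94.1 CPM in d27, against 179 and 165 CPM in WT, and fell by 1.08 ± 0.25 (edgeR adjusted p = 0.0349). The core genes of box C/D particles, FBL, NOP56, NOP58 and SNU13, had -0.52, -0.14, 0.58 and 0.16, and those of box H/ACA particles, DKC1, NHP2, GAR1 and NOP10, had -0.37, 0.33, -0.22 and -1.24. None of these 8 was called.

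Of 24 other small noncoding RNAs listed for comparison, 13 were tested, 1 fell and none rose (0 higher also at an unadjusted p under 0.05 and with DESeq2), with a median log2 fold change of -0.64. RN7SL1, the RNA of the signal recognition particle, had 862 and 1227 CPM in d27, against 2552 and 4102 CPM in WT. It fell by 1.67 ± 0.36 (edgeR adjusted p = 0.0293). This 1 of 13 was 7.69%, against 3.70% of all genes tested called lower and 8.00% higher. RNU5A-1 and RNU5B-1, the U5 snRNAs that SCARNA5 and SCARNA6 guide modification of, had -0.62 and -1.25 (edgeR adjusted p = 0.661 and 0.299). RNU5A-1 had 7.49 and 68.2 CPM in d27 and 71.5 and 44.3 CPM in WT, so it, too, was low in d27 replicate 1 and overlapped WT in d27 replicate 2. RNY1, a Y RNA, had -1.44 (edgeR adjusted p = 0.106). RMRP, RPPH1, RN7SK, TERC, RNU11 and RNU12 were listed at 0 in every library, although most cells use them, so a listing at 0 in these tables does not show that an RNA was absent.

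Of the 364 snoRNA and scaRNA symbols at 0, 168 (46.2%) overlapped an exon of another gene on the same strand in the annotation, against 8 of the 66 symbols with 1 to 19 counts (12.1%) and 5 of the 122 members with an entry (4.10%). Reads over such an overlap are ambiguous and counted for neither gene by common HTSeq settings. An identical copy elsewhere was found for 25 of the 362 symbols at 0 with a sequence (6.91%) and for 1 of 117 members. The values above therefore describe the members that were counted, and draw nothing from the symbols at 0.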

How the data were processed

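RNA from anti-V5 precipitates of SK-N-AS cells was sequenced after ribosomal RNA depletion with a strand-marking kit, per the labels' protocols. The deposited tables hold unnormalized gene counts from HTSeq on GRCh38, per the submitters' processing notes, which also name DESeq2. The aligner, annotation release, strand setting and tool versions were not given in the sources used here. Where genes overlap on opposite strands, their reads may therefore be mixed. HTSeq's summary entries, 25.9% and 36.8% of entries in d27 and 47.6% and 47.3% in WT, entered neither library sizes nor tests.

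Identifiers, without their version, were matched to symbols in a gene name table (60419 of 60719) and to GENCODE release 29, which gave positions, hosts (a gene around the member on the same strand), lengths and sequences. The test was edgeR 4.0.16 with limma 3.58.1 in R 4.3.3: TMM scaling (factors 1.01 and 1.03 for d27, 1.08 and 0.893 for WT), filterByExpr (minimum count 10, minimum total 15), and glmQLFit (robust) with glmQLFTest on group, n = 2 each. Genes were called at a Benjamini-Hochberg adjusted p under 0.05 over 14909 genes. Each SE came from the log2 fold change over the root of its test statistic. CPM carry no pseudocount. The procedure was tested on simulated data.

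Named genes were the 15 called members with the lowest p in each direction, the 20 most abundant, the 10 with the lowest p, every tested scaRNA, every precursor-cleavage member, those at the edges of the count minimum and called particle protein genes. The members and lists were chosen with earlier results of these data known. No label says that precipitates came from separate cultures, so p-values reflect only how these libraries vary, possibly for technical reasons. The alternatives were DESeq2 1.42.0 and its size factors, library totals, no filter, at least 50 counts, a replicate block and leaving out each library. Results on some items are not reported here.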

Additional observations from a re-analysis of the deposited data

How the results depend on the processing

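Over all genes, 1192 were called higher and 551 lower. Leaving out each library in turn gave 697 to 2715 higher and 71 to 2136 lower, no filter on low counts gave 1888 and 974 (with the median log2 fold change of all genes at 0.31), DESeq2 gave 1231 lower, and library totals gave 285 lower. Of the members, 20 fell: leaving out each library gave 8 to 49, no filter 36, DESeq2 31, its size factors 21 and library totals 15. The 1 member that rose became 0 with library totals (1 at an unadjusted p under 0.05) and 0 to 2 on leaving out each library. The median log2 fold change of tested members ranged from -2.10 to -0.53 on leaving out each library, and the share ratio from 0.271 to 0.632. With 1 library left in a group, that library is assumed to vary like those of the other group.

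The replicate numbers were set as a block in a further fit, which gave 2137 genes higher, 1438 lower, 26 members lower and 1 higher, kept all 21 main calls and moved the members' median to -1.34. The labels do not say that a number marks a shared culture or day. Deviations from the group means of same-numbered libraries correlated at 0.0962, and with 2 pairs the samples share only a number.

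Among the 41 tested members that are named by rule, signs turned for 4, none of them called. The other members were not checked for this. SNORA66 had 0.0058 with library totals, 0.028 with no filter, and -2.22 to 0.86 on leaving out each library (0.63 without WT replicate 1, 0.86 without d27 replicate 1). On leaving out each library, SCARNA1 ranged from -2.00 to 0.32 (0.32 without WT replicate 1), SNORD14E from -0.58 to 1.27 (-0.46 without WT replicate 2, -0.58 without d27 replicate 2) and SNORD3C from -1.83 to 1.77 (0.27 without d27 replicate 1, 1.77 without WT replicate 1). Of the other values of single named genes under an alternative, 348 kept their direction and side of the threshold, 31 newly passed it and 21 no longer did. The cause of these changes was not tested. The limits are 2 libraries per group and a d27 replicate 1 that is lower than d27 replicate 2 in nearly all members.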

Other observations

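Of the 123 members, 30 shared a host gene with another member, in 11 hosts. Where both the U19 relatives SNORA74A and SNORA74D lie in SNHG4, their log2 fold changes were -0.94 and -0.85, against 0.90 for SNHG4, and none was called.

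NOP58 encodes a core protein of box C/D particles and itself hosts the box C/D members SNORD70, SNORD11B and SNORD11. They had log2 fold changes of -1.30, -0.52 and -0.25, against 0.58 for NOP58, and none was called. In KANSL2, SNORA2A had -1.30, while SNORA2B and SNORA2C had 0.28 and -0.11, so members of the same host did not all take the same side. In WDR43, SNORD92, SNORD53B and SNORD53 had -1.87, -0.61 and 0.78. SNORD53 and SNORD53B are 80.8% identical. None of the members in KANSL2 or WDR43 was called, and differences within a host were not tested.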
